A study of Rattus norvegicus with 6 samples.

Results

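Guanylate-binding proteins (GBPs) and immunity-related GTPases (IRGs) were followed in 6 RNA-seq libraries of cardiac fibroblasts (NRCFs), a primary culture made from hearts of newborn Sprague-Dawley rats that were at most 3 days old. The strain label of the libraries reads Noway instead, and the difference could not be settled here. Of 8 gene symbols asked for (Gbp1, Gbp2, Gbp3, Gbp4, Gbp5, Igtp, Irgm and Iigp1), 7 were found among the 21857 symbols in the count files, and Iigp1 was not analysed here. The Vector group, with genotype label WT, held 3 libraries of cells given the empty plasmid, and 3 further libraries carried the label FTO overexpression, from cells given a plasmid with rat FTO, a demethylase of the N6-methyladenosine (m6A) mark on RNA. By the labels and the study's methods both groups were primary cultures of the same kind, transfected transiently, and such cultures can hold other heart cells. Whether the plasmid was the only difference between the groups cannot be told from the labels. Fto was not called higher while 65.9% of the tested genes were called, and this bears on each fold change below. Nothing in the labels says that the libraries of a group came from separate cultures, so p-values measure only the spread between these libraries.

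All 7 genes found were higher in the libraries labelled FTO, and in none of them did the groups overlap. Of all genes tested, 33.2% were called higher and 70.3% had no overlap between the groups. Gbp1, Gbp3 and Gbp4 had enough counts for testing only in the libraries labelled FTO. The summed CPM (counts scaled to library size after TMM normalization) of the 7 genes rose from 38.6 ± 1.15 to 870 ± 64.0 (SD, n = 3 libraries each). Gbp1, Gbp2, Gbp4 and Gbp5 rose more than the pair of IRGs by their 95% intervals, and Gbp3, at 0 counts in Vector, has only a lower bound. Gbp2 changed 32.1-fold and Gbp5 40.5-fold, while Igtp changed 9.90-fold and Irgm 12.0-fold.

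GBPs are large GTPases of the dynamin superfamily that bind guanine nucleotides, assemble into coats on bacteria and on the vacuoles that shelter pathogens, and help to start inflammasome signalling. IRGs are smaller GTPases, abundant in rodents, that act on the same vacuoles. The effector IRGs damage the vacuole membrane, and the regulators Igtp (Irgm3) and Irgm sit on the cell's own membranes and hold the effectors in check. Most are expressed at low levels at rest and are induced by interferons. Type II interferon acts mainly on GAS elements in promoters, and type I interferon on the interferon-stimulated response element (ISRE), to which IRF factors such as IRF1 also bind.

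The sequences just before the start of these genes were therefore laid beside the counts. RefSeq promoters of the GRCr8 assembly, from 250 bases before to 50 bases after each annotated start, matched 6 of the members, with 7 starts in all because Gbp1 has 2. Each was searched on both strands for the ISRE core GAAANNGAA and for the GAS element TTCNNNGAA. The following stretches show every match in them, in capitals, with 15 bases on either side and in the direction of transcription. A core on the opposite strand is printed as its reverse complement, with TTTC at its end.

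Igtp (GRCr8, chr10:42874918-42874967, plus strand): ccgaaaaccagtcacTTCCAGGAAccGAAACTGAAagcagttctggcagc
Irgm (GRCr8, chr10:33742589-33742638, minus strand): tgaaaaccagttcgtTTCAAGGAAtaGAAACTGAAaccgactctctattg
Gbp2 (GRCr8, chr2:234005682-234005720, plus strand): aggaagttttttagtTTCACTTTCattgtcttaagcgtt
Gbp4 (GRCr8, chr2:233978462-233978500, plus strand): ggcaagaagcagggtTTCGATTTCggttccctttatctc
Gbp5 (GRCr8, chr2:233910825-233910967, plus strand): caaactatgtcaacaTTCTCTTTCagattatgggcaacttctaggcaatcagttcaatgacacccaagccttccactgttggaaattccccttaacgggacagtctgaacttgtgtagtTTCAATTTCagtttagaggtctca
Gbp1, start 1 (GRCr8, chr2:234071226-234071264, plus strand): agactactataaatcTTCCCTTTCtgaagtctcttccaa
Gbp1, start 2 (GRCr8, chr2:234072192-234072324, plus strand): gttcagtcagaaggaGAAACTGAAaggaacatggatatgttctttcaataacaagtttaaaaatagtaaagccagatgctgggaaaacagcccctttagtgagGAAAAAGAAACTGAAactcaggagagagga

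An ISRE core lay in all 7 of these windows, whereas 9.71% of the 33469 RefSeq promoters of the same length held one. The GAS element was found in Igtp and Irgm and in none of the 4 GBP members with a promoter, against 8.87% of all promoters. Gbp7, a GBP outside the members, held 2 GAS elements, so the motif does not divide the families. Igtp and Irgm thus held both motifs, as did 1.11% of all promoters. In both genes the GAS element stood 2 bases before the ISRE core, which began 103 bases before the start in Igtp and 34 bases before it in Irgm. The ISRE core began 30 bases before the start of Gbp2, 9 before that of Gbp4, and 159 and 55 before that of Gbp5. The second start of Gbp1 had 3 cores, of which the last 2 overlapped. These are matches of letters in a window and no evidence of binding, and the counts do not tell which start of Gbp1 was used.

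**Figure D1:**
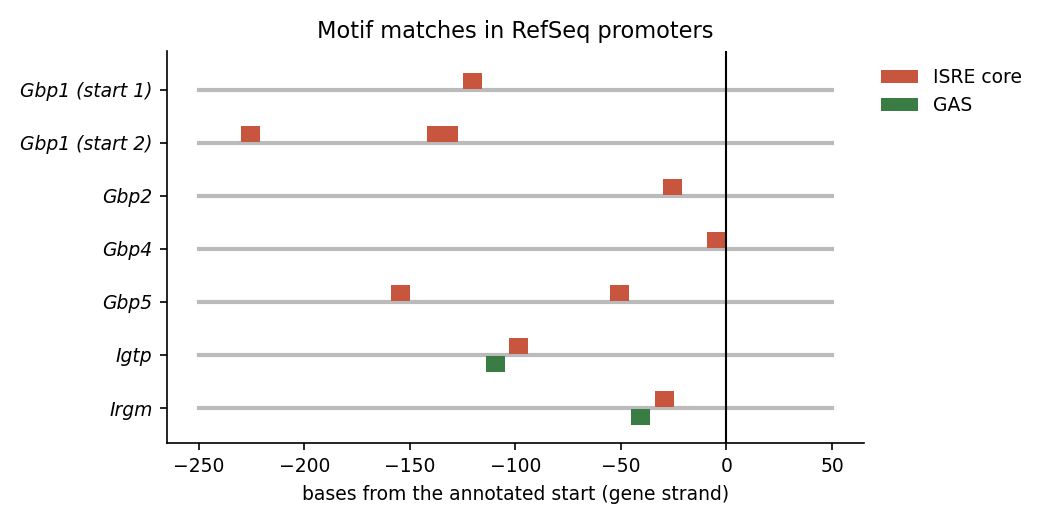
Positions of ISRE cores (GAAANNGAA, red) and GAS elements (TTCNNNGAA, green) on either strand in the 7 RefSeq promoters of the members, in bases from the annotated start at 0. Every promoter carries an ISRE core, and in Igtp and Irgm the GAS element lies 2 bases before it.

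The libraries held 13178952 to 17857999 counts, and 12941 genes were tested. A count of 3 in a library, used as the floor, was worth 0.168 to 0.227 CPM. Log2 CPM correlated across genes at 0.994 or more within the groups and at 0.900 or less between them, a description over genes that are not independent. Fto itself, which the plasmid was meant to raise, was at 88.3 ± 1.20 CPM in Vector and 92.3 ± 1.32 CPM in the libraries labelled FTO (SD, n = 3 each), with a log2 fold change of 0.06 (SE 0.0468; edgeR quasi-likelihood test, adjusted p = 0.239). The Fto groups did not overlap, at 87.4 to 89.6 CPM in Vector and 90.8 to 93.2 CPM in the libraries labelled FTO. The paper reports checks of the FTO transfection by qRT-PCR and by protein. Since Fto was not called higher in these libraries, each direction given here is that of the libraries labelled FTO against Vector. The groups differed in many genes, with 33.2% of the tested genes called higher and 32.8% called lower at an adjusted p under 0.05. All 7 members found passed the filter on low counts, and 7 of 7 were called higher, beside that background of 33.2%. Gbp1, Gbp3 and Gbp4, with at most 7 counts in any Vector library, passed the filter only through the libraries labelled FTO. A call of lower was thus not open to these genes, and the count of 7 is in part fixed by the filter. A log2 fold change of at least 3 was reached by 7 of 7 members and by 2.49% of all tested genes, and the groups did not overlap in 70.3% of all tested genes. The median log2 fold change was 5.34 over the members, or 5.01 with Gbp3 at its lower bound, and 0.00 over all tested genes. CPM are not divided by transcript length, so levels are compared between groups for 1 gene and not between genes.

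Gbp2, a prenylated GBP that targets pathogen vacuoles, had 10.5, 9.73 and 10.5 CPM in Vector replicates 1, 2 and 3. The libraries labelled FTO had 348, 312 and 327 CPM in the same order. The lowest library labelled FTO thus lay far above the highest Vector library, and Vector counts of 143 to 152 per library placed the gene well above the floor at rest. The log2 fold change was 5.01 (SE 0.0650, 95% interval 4.87 to 5.14; edgeR quasi-likelihood test, adjusted p = 9.3e-18). Of all tested genes, 135 had a higher log2 fold change than Gbp2.

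Gbp5, a prenylated GBP known for promoting inflammasome assembly, was at 5.63, 5.84 and 6.51 CPM in the Vector libraries. The libraries labelled FTO reached 270, 216 and 243 CPM. The groups were again far apart, and replicate 1 was the highest library and replicate 2 the lowest in the group labelled FTO, as for Gbp2. Its log2 fold change was 5.34 (SE 0.0970, 95% interval 5.13 to 5.55; edgeR quasi-likelihood test, adjusted p = 4.4e-16).

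Gbp1, a GBP that coats cytosolic bacteria in other species, was close to the floor in Vector, with 2, 5 and 5 counts. The libraries labelled FTO held 531, 427 and 602 counts, or 37.2, 32.2 and 33.6 CPM. Few Vector counts limit the precision of its fold more than the spread of the other group does. Its log2 fold change was 6.90 (SE 0.184, 95% interval 6.51 to 7.30, edgeR quasi-likelihood test, adjusted p = 4.1e-14). The ratio of summed counts, scaled to library size, was 123 with an exact counting interval of 70.3 to 239.

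Gbp4 showed the same form, with 3, 4 and 7 counts in Vector against 424, 426 and 484 in the libraries labelled FTO. On the CPM scale these were 0.219, 0.268 and 0.485 against 29.7, 32.2 and 27.0. No library of one group came near the other, and here replicate 2 was the highest and replicate 3 the lowest of the libraries labelled FTO. The log2 fold change was 6.47 (SE 0.193, 95% interval 6.06 to 6.88, edgeR quasi-likelihood test, adjusted p = 1.6e-13). The ratio of summed counts, scaled to library size, was 90.3 with an exact counting interval of 53.6 to 166.

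Gbp3 was the least covered member. It had 0 counts in all 3 Vector libraries and 39, 17 and 37 in the libraries labelled FTO, or 2.74, 1.28 and 2.07 CPM. The lowest of these was 46.9% of the highest, the widest spread among the members. Against the floor of 3 counts per Vector library, Gbp3 was at least 9.68-fold higher in the libraries labelled FTO (edgeR quasi-likelihood test, adjusted p = 3.7e-06). Its place among the other GBPs by fold is therefore not known.

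Among the IRGs, Igtp was measured at 13.4, 14.4 and 14.2 CPM in Vector. In the libraries labelled FTO it was at 149, 129 and 138 CPM. The Vector libraries differed from each other by little, and the groups did not overlap. Its log2 fold change was 3.31 (SE 0.0712, 95% interval 3.16 to 3.46; edgeR quasi-likelihood test, adjusted p = 3.0e-15).

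Irgm, the second regulatory IRG, was at 8.41, 6.98 and 7.76 CPM in Vector and at 101, 86.9 and 90.5 CPM in the libraries labelled FTO. Its log2 fold change was 3.59 (SE 0.0870, 95% interval 3.40 to 3.78; edgeR quasi-likelihood test, adjusted p = 1.3e-14). The interval of Irgm overlapped that of Igtp and lay under those of Gbp1, Gbp2, Gbp4 and Gbp5. The difference between IRGs and GBPs was not tested beyond these intervals.

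The order of the fitted changes was thus Gbp1, Gbp4, Gbp5, Gbp2, Irgm and Igtp, with Gbp3 left out as a bound. The intervals of the neighbours Gbp1 and Gbp4 overlapped, as did those of Irgm and Igtp, while those of Gbp4 and Gbp5 did not. Those of Gbp5 and Gbp2 overlapped only between 5.13 and 5.14. In reads, the GBPs made up 43.0% to 44.9% of the members' counts in the Vector libraries and 73.3% to 73.5% in those labelled FTO. The summed CPM of the GBPs was 37.9 times higher and that of the IRGs 10.7 times higher. Within the group labelled FTO, replicate 1 was highest and replicate 2 lowest in 6 of the 7 members, Gbp4 being the exception.

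**Figure D2:**
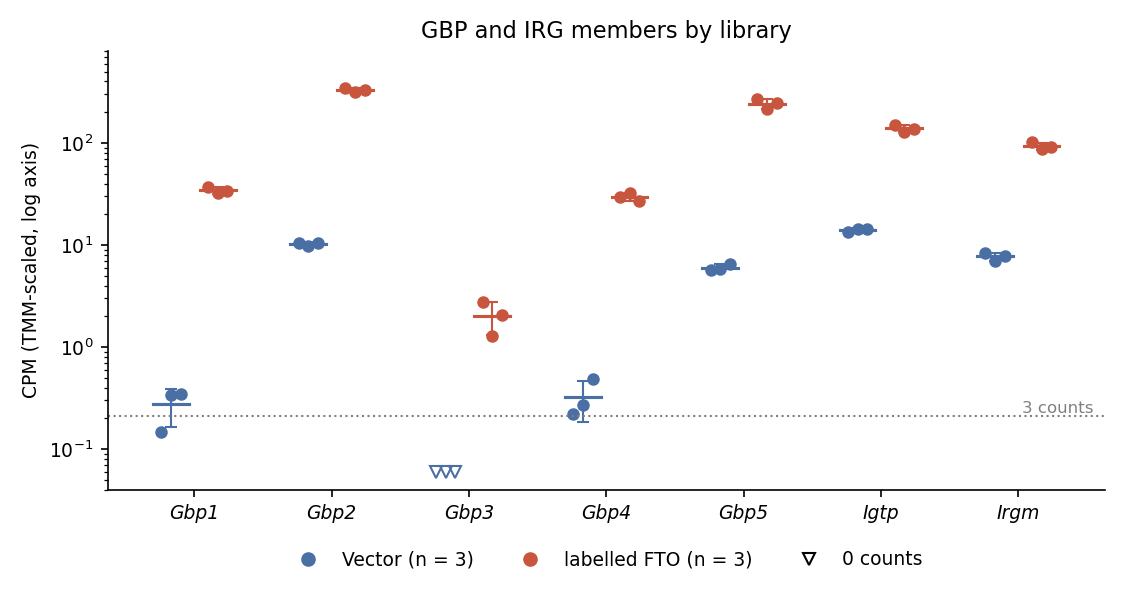
CPM of each member in each library on a log axis, with the mean and SD of 3 libraries per group as a line and bar, Vector in blue and the libraries labelled FTO in red. The open triangles mark the 3 Vector libraries with 0 counts of Gbp3, the dotted line marks 3 counts, and in each gene all red points lie above all blue ones.

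The genes lie in 3 places of the RefSeq assembly, and the nearest genes outside the family with counts were set beside them. Whether a change ran along the chromosome was not tested. On chromosome 2 the protein-coding genes run Gbp5, Gbp7, Gbp4, Gbp2, Gbp1 and Gbp3, with an unnamed gene before Gbp3. The files list Gbp7 as LOC685067, matched by its RefSeq gene ID. It had 48, 46 and 52 counts in Vector and 3078, 2636 and 3861 in the libraries labelled FTO, a log2 fold change of 5.95 (SE 0.0781; edgeR quasi-likelihood test, adjusted p = 1.0e-17). On either side of the block, the log2 fold change was −1.16 for Pdlim5 and 1.33 for Kyat3. Further out it was 1.28 for Bmpr1b and 0.25 for Gtf2b. Each of these was called, as were 65.9% of all tested genes. All 6 tested genes inside the block were above these 4. GBPs are near-identical tandem copies in part, and how reads that match several copies were counted is not given in the sources used here, so the split of reads among them is uncertain.

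On chromosome 10, Irgm and Ifi47, an IRG close to the effectors, enclose RGD1559575. Ifi47 rose by a log2 fold change of 3.00 (SE 0.102; edgeR quasi-likelihood test, adjusted p = 7.9e-13), from 86, 93 and 119 counts to 852, 685 and 978. RGD1559575 between them fell by 1.69 on the log2 scale (adjusted p = 5.1e-08 in the same test). Outside the pair, the log2 fold change was 0.65 for Trim7 (called) and 0.10 for Zfp62 (not called), and Btnl9 had too few counts to be tested. Around Igtp, the changes were 0.68 for Mrpl22, −0.49 for Zfp692, −0.16 for Gemin5 and −0.21 for Zfp672, of which the first 2 were called. Irgm2, another IRG, also lies near Igtp, with its promoter window starting at chr10:42889720 against chr10:42874797 for Igtp. Its symbol was not found among those counted, so it is not among these neighbours.

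**Figure D3:**
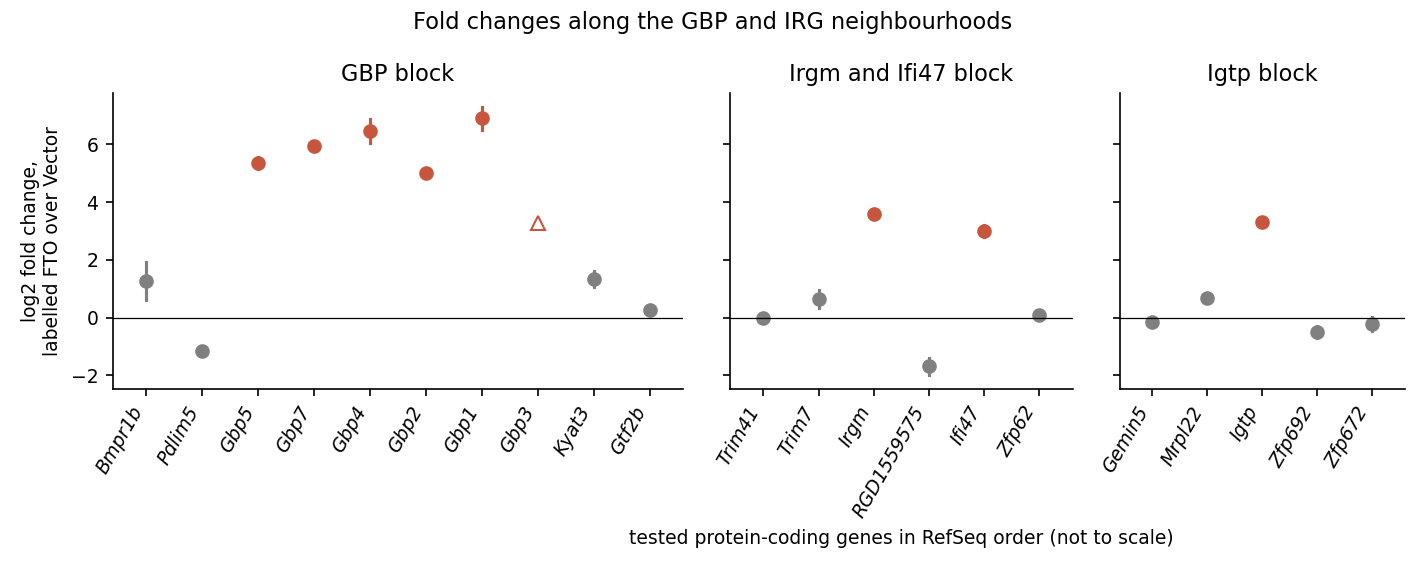
Log2 fold change with 95% interval of the tested protein-coding genes in RefSeq order in the 3 neighbourhoods. The members, Gbp7 and Ifi47 are in red and other genes in grey, with Gbp3 at its lower bound (open triangle). RGD1559575, between Irgm and Ifi47, was drawn in grey, and whether it belongs to either family was not checked. Every red gene lies above every grey gene of its neighbourhood.

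The wider family was taken from a list of 17 further GBP and IRG names, of which 7 were found in the files and 6 were tested. Among these, 4 were called higher and 1 lower, beside 33.2% and 32.8% of all tested genes. Besides Gbp7 and Ifi47, RGD1309362 (Ifgga1 in RefSeq) rose from 34, 32 and 32 counts to 146, 99 and 175, a log2 fold change of 2.01 (SE 0.175; edgeR quasi-likelihood test, adjusted p = 7.6e-08). RGD1305184 (Ifgga4) had 0, 0 and 1 counts in Vector and 37, 32 and 33 in the libraries labelled FTO, at least 10.9-fold higher. The groups of both genes were apart. RGD1305184 passed the filter only through the libraries labelled FTO, so a call of lower was not open to it. Irgq, a divergent family member, fell by 0.77 on the log2 scale (SE 0.205; adjusted p = 0.0039 in the edgeR quasi-likelihood test). Irgc was at 0.629 ± 0.0819 and 1.04 ± 0.251 CPM (SD, n = 3 each) and was not called, with an adjusted p = 0.101 in that test. LOC499229 (Gvin1) had at most 5 counts in any library and was not tested. In the promoter of Gbp7 an ISRE core matched beside its 2 GAS elements, and in that of Ifi47 there were 2 GAS elements and no ISRE core.

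GBPs and IRGs share their GTPase fold with the dynamin superfamily, whose housekeeping members cut vesicles and remodel mitochondria and the endoplasmic reticulum. Of 10 such genes, 9 were tested, with 1 called higher, 4 lower and 4 not called, and a median log2 fold change of −0.06. Of all tested genes, 33.2% were called higher and 32.8% lower. The largest change was 0.84 for Dnm1, and the lowest was −0.34 for Dnm1l. The antiviral Mx GTPases, also dynamin-like and interferon-induced, changed by 8.60 (Mx1, SE 0.128) and 9.02 (Mx2, SE 0.113) on the log2 scale. Both had higher fold changes than Gbp1, the GBP that changed most among those above the floor.

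**Figure D4:**
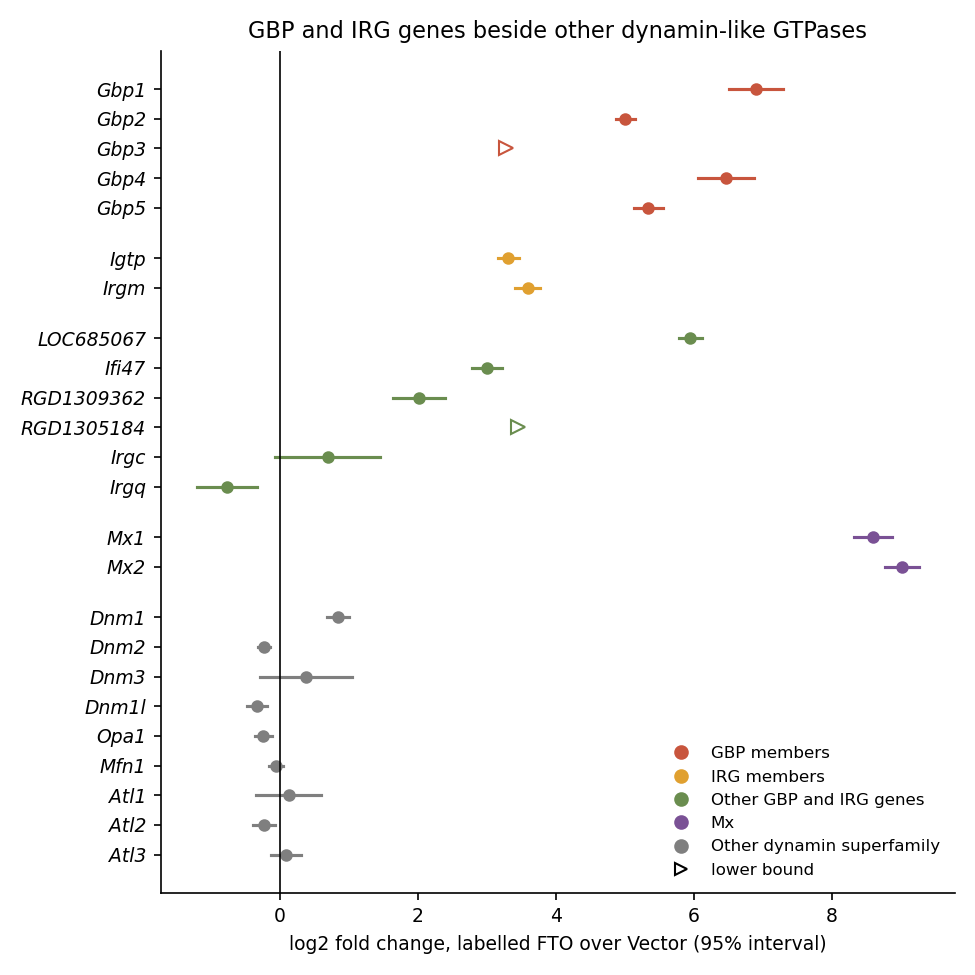
Log2 fold change, FTO label over Vector, with its 95% interval for GBP and IRG members, other genes of both families, Mx genes and housekeeping dynamin-like genes, with lower bounds as open triangles. GBPs lie between 5.01 and 6.90 apart from the bound of Gbp3, the 2 IRGs at 3.31 and 3.59, and the housekeeping genes between −0.34 and 0.84.

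Genes that act before the GBPs and IRGs were then listed by their role. Of 12 interferon and related ligand genes in the files, 9 were listed at 0 in all 6 libraries, among them Ifng and Ifnb1. Mfn2, a gene that most cells use, was also listed at 0, so a 0 is only a listing. Ebi3, a subunit of interleukin 27, was the only ligand tested, at 2.92 ± 0.789 and 10.4 ± 0.916 CPM (SD, n = 3 each), a log2 fold change of 1.84. Among 7 receptor and kinase genes, 5 were called higher and 2 not, beside 33.2% of all tested genes called higher. The type II receptor chains changed by 1.80 (Ifngr1) and 0.65 (Ifngr2), the type I chains by 1.16 (Ifnar1) and 0.60 (Ifnar2), and the kinase Jak2 by 3.04 on the log2 scale. Jak1 and Tyk2 were at −0.06 and −0.14 and were not called, with an adjusted p of 0.31 and 0.097 in the edgeR quasi-likelihood test.

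Of 12 listed transcription factors 11 were tested, and 10 were called higher and 1 lower, beside 33.2% and 32.8% of all tested genes. Ciita had too few counts to be tested, with 4, 13 and 8 in Vector and 3, 0 and 5 in the libraries labelled FTO. Batf2, with 1, 0 and 0 counts in Vector, passed the filter only through the libraries labelled FTO. A call of lower was not open to Batf2. Stat2 and Irf9, which act together on the ISRE in the type I response, changed by 2.46 (SE 0.0478) and 1.94 (SE 0.0620) on the log2 scale. Irf1, which binds the ISRE in the type II response, changed by 0.97 (SE 0.0685). Irf7, which amplifies type I interferon, had the largest change of the list at 8.19 (SE 0.0802), and Irf3 fell by 0.33 on the log2 scale.

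Feedback inhibitors of the pathway were called higher in 5 of 6 cases, with Usp18, which blocks the type I receptor, at a log2 fold change of 6.79 and Ptpn11 lowest among those called at 0.15. The ATG8 conjugation system guides IRGs and GBPs to vacuoles. Its list, which also held the ATG8 proteins and their cargo receptors, gave 5 called higher and 2 lower of 12 tested, with a median of 0.02. Its extremes were Gabarapl1 at 0.92 and Atg5 at −0.40. Enzymes that prenylate GBPs and so fix them in membranes gave 1 called higher and 2 lower of 5, between 0.28 for Fnta and −0.58 for Pggt1b. Among 15 genes for proteins that work with GBPs in inflammasomes and coats, 11 were called higher and 3 lower, from Il18 at −0.95 to Il1b at 6.42. The DNA sensor Aim2 changed by 5.67 and the pore former Gsdmd by 1.28, while the caspase Casp4 fell by 0.67 and the sensor Nlrp3 by 0.42 on the log2 scale, all singled out after their values were seen. Without FTO replicate 3, Nlrp3 was no longer called (adjusted p = 0.0572, edgeR quasi-likelihood test). With 33.2% of all genes called higher and 32.8% lower, the counts of the ATG8 and prenylation lists were close to the background. Usp18, Il1b, Aim2 and Apol3 passed the filter only through the libraries labelled FTO, so a call of lower was not open to them.

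**Figure D5:**
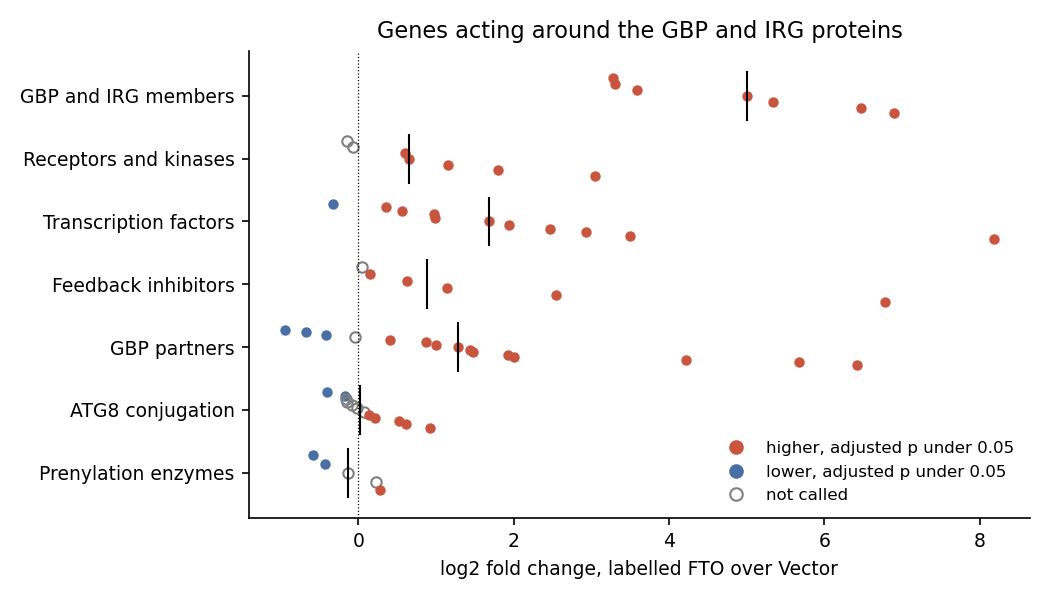
Log2 fold change of each tested gene in the members' list and 6 lists of genes acting with them, in red where called higher, blue where called lower and open where not called, with the list median as a black line. Members at or under the floor in Vector are drawn at their lower bound. The members' median is 5.01, while the ATG8 and prenylation lists centre near 0.

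Markers of other cells were read in the same libraries, since immune cells also express GBPs and IRGs. In bulk RNA, fewer cells of a type and less RNA per cell cannot be told apart. The counts of markers called stand beside 33.2% of all tested genes called higher and 32.8% lower. The summed CPM of 7 macrophage markers was 386 to 403 in the Vector libraries and 100 to 118 in those labelled FTO, with 6 of 7 called lower and Adgre1 called higher. T and NK cell markers summed to 31.9 to 34.2 and 6.12 to 8.15 CPM, 7 of the 9 had at most 3 counts in every library, and the defining markers Cd3e, Cd3d and Nkg7 were listed at 0 in all. The other 2, Cd4 and Cd8a, were called lower, with 86, 79 and 140 counts of Cd4 and 3, 2 and 4 of Cd8a left in the libraries labelled FTO. Endothelial markers rose from 24.5 to 25.0 CPM in sum to 52.9 to 55.8, with 4 of 5 tested called higher.

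Fibroblast markers were abundant in both groups, at 36849 to 37674 summed CPM in Vector and 18488 to 19609 in those labelled FTO. The Vector sum was mostly Col1a1 (mean 25809 CPM) and Col3a1 (10699 CPM), so the sum mainly follows these collagens. Both were called lower, as were Tcf21 and Ddr2, while Pdgfra, Dcn, Lum and Thy1 were called higher, 4 of 8 in each direction. Cardiomyocyte markers summed to 1033 to 1053 and 1315 to 1371 CPM, with 5 of 6 tested called higher. Tnnt2, the largest part of the sum at a mean of 770 CPM in Vector and 649 in those labelled FTO, was called lower. Mural cell markers went from 636 to 661 CPM to 230 to 274, but 2 of the 5 tested, Kcnj8 (log2 fold change 4.89) and Abcc9 (2.45), were called higher and 3 lower. The markers of Schwann or neural cells went from 205 to 221 CPM to 67.7 to 69.9, with 3 of 4 tested called lower and none higher. Nearly all of the Vector sum was Ncam1, at a mean of 207 CPM. Epithelial markers were low, at 2.41 to 2.84 CPM in sum in Vector and 8.56 to 13.1 in those labelled FTO. Of 3 tested, 2 were called higher, and Krt18 among them passed the filter only through the libraries labelled FTO. The part of these shifts in the levels of the GBPs and IRGs was not tested.

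The tested genes outside the family whose log2 CPM over the 6 libraries followed the members' mean most closely were Rab32, Sema3c, Aamp, Klrk1 and Ly6al, with Pearson's r of 0.99995 for Rab32. With 2 groups that stand apart, such values mainly reflect the group difference, and 995 tested genes had an r over 0.99. Rab32 is a small GTPase that also acts on pathogen vacuoles, and it changed by 1.23 on the log2 scale (SE 0.0419).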

How the data were processed

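RNA-seq counts were deposited by the authors as whole-number counts per gene symbol, 1 file per library. The submitters' processing notes name Trimmomatic and the build rn6, and the aligner, the counting program and the use of strand are not given in the sources used here. Groups were taken from the genotype labels (Vector: WT). Libraries had 13178952 to 17857999 counts. Genes were kept with filterByExpr (minimum count 10), scaled by TMM and compared with the quasi-likelihood test of edgeR 4.0.16 in R 4.3.3, two-sided, with no covariate and Benjamini-Hochberg adjustment over 12941 genes. A gene was called at an adjusted p under 0.05. Where all libraries of a group had at most 3 counts, the fold is a bound against 3 counts per library. Without molecular identifiers, the intervals and floors cover only counting error and the spread between libraries. The procedure was first tested on simulated counts.

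Named genes are the members, their listed relatives, and of each other list the called genes with the largest and smallest change, the interferon ligands and receptors, Stat2, Irf1 and Irf9, plus the 5 genes most like the members' mean. Ciita, Batf2 and Apol3 are named for their low counts. The members and lists were chosen with earlier results of these data known. RefSeq tables (GRCr8) gave promoters, current names and gene order. As rn6 differs from GRCr8, coordinates are printed for promoters only. One listed gene is not reported here. No set was tested, and the planned search of protein motifs was not run. Alternatives were DESeq2 1.42.0 and limma-voom (limma 3.58.1), other scalings and filters, the replicate number as a block, and leaving out each library.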

Additional observations from a re-analysis of the deposited data

How the results depend on the processing

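All 7 members found stayed called higher under each of 13 alternatives, with no change of direction, and the largest adjusted p was 4.9e-05 (Gbp3). In the main comparison 33.2% of all tested genes were called higher. For Gbp1, Gbp3 and Gbp4, which passed the filter only through the libraries labelled FTO, a call of lower was not open. Their median log2 fold change of 5.34 ranged from 5.25 to 5.42 when each library was left out in turn. Fitted values of Gbp3 ran from 5.84 with limma-voom to 8.16 without FTO replicate 2, which is why only its bound is given. The log2 ratio of the summed CPM was 4.50, and 4.26 without Gbp2. The replicate numbers did not pair the libraries (correlations of 0.01, −0.09 and 0.04 for equal numbers, and between −0.13 and 0.12 for unequal ones). With the replicate number as a block, 7 members, 58 list genes and 8399 of all genes were called, with a member median of 5.33, against 7, 58, 8531 and 5.34 without it. Among 75 other genes on the lists and Fto, 11 changed in some way, 7 times losing and 5 times gaining a call, and no gene called in the main comparison changed sign. With each library left out in turn, the log2 fold change of uncalled genes that changed sign ran from −0.068 to 0.21 for Atl3, −0.12 to 0.0039 for Jak1, −0.043 to 0.11 for Pias1, −0.093 to 0.039 for Map1lc3a and −0.32 to 0.16 for Sfn. The cause was not tested. Depth limits Gbp1, Gbp3 and Gbp4, which had at most 7 counts in any Vector library.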

Other observations

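Klrk1 and Ly6al, among the 5 genes whose pattern was most like that of the members, had 0 counts in all Vector libraries. Klrk1, known as a receptor of natural killer cells, had 272, 203 and 304 counts in the libraries labelled FTO, at least 81.8-fold higher than the floor of 3 counts per library. Ly6al, named like the Ly6 surface proteins, had 97, 76 and 109 counts there, at least 29.6-fold higher. Of the 9 T and NK cell markers, 7 had at most 3 counts in every library, and Cd4 and Cd8a were called lower in the libraries labelled FTO. The promoter of Irgm2, an IRG regulator, held the GAS element 2 bases before an ISRE core, as in Igtp and Irgm.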
